A study of Mus musculus with 19 samples.

Results

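The ATP-binding cassette (ABC) genes were described in mouse liver after exposure to dibenz[a,h]anthracene (DB[a,h]A), a polycyclic aromatic hydrocarbon. Members were all probes, control spots aside, whose RefSeq accession belongs to a gene with a symbol starting Abca, Abcb, Abcc, Abcd, Abce, Abcf or Abcg and a number. The rule found 67 of 55681 probes, for 49 genes, of which 41 genes gave a liver signal above background and were measured. RefSeq (GRCm38.p6) lists 50 such genes, and Abca16 was the 1 without a probe. All animals were 10-week-old males of the transgenic strain 40.6, whose transgene the labels do not name, taken 3 days after exposure. They received 0 mg/kg (5 mice), 6.25 mg/kg (5 mice), 12.5 mg/kg (4 mice) or 25 mg/kg (5 mice) of DB[a,h]A, and each liver was measured on 1 array. The route and the vehicle are not given in the sources used here. Each array set liver RNA (Cy5, red) against a universal reference RNA pooled from 11 mouse cell lines (Cy3, green), and the dyes were never swapped. Every value below is the log2 ratio of liver over reference for 1 probe, so it compares groups for the same gene and does not rank genes by abundance.

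ABC proteins bind and hydrolyse ATP, and most of them use it to move lipids, bile salts, conjugated drugs, heme or peptides across a membrane. In hepatocytes, members on the canalicular face secrete bile salts, phospholipid, cholesterol and conjugates into bile, and members on the sinusoidal face return conjugates and lipids to blood. Polycyclic aromatic hydrocarbons are ligands of the aryl hydrocarbon receptor (AhR), a transcription factor that binds with its partner Arnt at sites holding the core GCGTG. The data ask whether the RNA of these transporters differs between doses.

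No ABC gene differed between a dose and control at a Benjamini-Hochberg adjusted p under 0.05 in limma. Few probes of any kind did: 0.0578% of all probes at 25 mg/kg and 0.00% at 12.5 and at 6.25 mg/kg. The promoter sequences printed are those of the 4 genes to which the values below return. Abcb1a and Abcf3 were the 2 members whose 5 arrays at 25 mg/kg did not overlap the 5 control arrays. Over all probes 1.75% did not overlap in this way. Abcg5 had the highest log2 change at 25 mg/kg, and it starts back to back with its partner Abcg8. The sequences are from RefSeq (GRCm38.p6), 5′ to 3′. For Abcb1a (chr5:8566971-8567090, + strand) and Abcf3 (chr16:20548483-20548602, + strand) they are the 120 bases before the transcription start, with GCGTG on either strand in capitals. For Abcg5 and Abcg8 the line holds the 109 bases between both starts (chr17:84683012-84683120, + strand as printed), with AGATAA on either strand in capitals.

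Abcb1a: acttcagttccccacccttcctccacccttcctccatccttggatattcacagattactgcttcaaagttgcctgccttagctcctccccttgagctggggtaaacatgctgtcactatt
Abcf3: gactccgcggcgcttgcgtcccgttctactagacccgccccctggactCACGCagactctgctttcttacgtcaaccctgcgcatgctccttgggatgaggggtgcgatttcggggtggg
Abcg5 and Abcg8: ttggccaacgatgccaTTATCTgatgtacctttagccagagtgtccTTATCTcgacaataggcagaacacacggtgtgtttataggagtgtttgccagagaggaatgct

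Promoters running from 250 bases before to 50 bases after a start were found by symbol for 38 of the 50 RefSeq genes, 45 promoters in all. They include Abca16, which has no probe, and genes that were not measured. GCGTG, searched on both strands, stood in 35.6% of these 45 promoters and in 32.4% of all 32851 mouse promoters in the table. Abcf3 was among the 16 genes with it, with 3 matches in the whole window and 1 in the bases printed, and Abcb1a had none. AGATAA, letters of the kind that GATA factors bind, stood in 13.3% of these 45 promoters and in 11.2% of all. The stretch between Abcg5 and Abcg8 held 2 matches, and as the windows of both genes cover it, these matches count for both. Of the 6 genes with AGATAA, Abca12, Abca14 and Abca16 were not measured. CACGTG, the E-box, stood in 6 of the 45 promoters (13.3%) against 7.15% of all, and Abca15 among them was not measured. G and C made up a median of 57.0% of the letters in these promoters and 52.7% in all. The part of this in the shares was not tested. TTATGTAA and TTACGTAA, the letters bound by Dbp, Tef, Hlf and Nfil3, were in 0 of the 45 promoters and in 0.938% and 0.119% of all. These matches describe letters in a window and say nothing of binding.

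In control livers 27 of the 41 measured genes had a mean ratio above 0 (20 with median centring), and 23 genes were above 0 on all 19 arrays. Normalisation centres each array near 0, so the sign is relative to that centre and not to equal signal from liver and reference. The ratio was below 0 on all 19 arrays for 11 genes. The liver signal was over 4-fold that of the reference for 14 genes, 34.1% of the 41 against 10.4% of the 13812 named genes measured. They include the canalicular exporters Abcb11, Abcb4, Abcc2, Abcg2, Abcg5 and Abcg8. The reference was over 4-fold higher for 3 genes, 7.32% against 7.67%: Abcc1 at -3.40 ± 0.48 (SD, n = 5), Abcb1b at -2.64 ± 0.38 and Abcb9 at -2.14 ± 0.31.

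By subfamily, the median control ratio was 0.84 over 10 Abca genes, 0.97 over 9 Abcb genes and 0.26 over 10 Abcc genes. It was -0.54 over 3 Abcf genes and 2.59 over 5 Abcg genes, and Abce1 stood at -0.51. The ratios to the reference differed within a subfamily: the Abcc genes ran from Abcc1 at -3.40 to Abcc2 at 6.33. At 25 mg/kg the medians were 0.94, 0.98, 0.29, -0.49 and 2.81 for Abca, Abcb, Abcc, Abcf and Abcg. The 8 genes not measured were Abca4, Abca12, Abca13, Abca14, Abca15, Abcb5, Abcd2 and Abcg3. Their liver signal was well above background on at most 2 of the 19 arrays, while the reference signal of Abcg3 was so on 15 arrays and that of 1 Abca4 probe on 14. Abcc12 was measured on the strength of 4 arrays and was not well above background on any array at 12.5 mg/kg. Liver signal was above background on all 19 arrays for 32 of the 41 genes. It was so on 13 arrays for Abca17, Abcc1 and Abcg4, on 15 for Abca9, on 16 for Abcb1a (2 of the 4 at 12.5 mg/kg) and on 18 for Abca5, Abcb1b and Abcc4. Reference signal was above background on all 19 arrays for 33 genes. It was so on 0 arrays for Abcg8, 2 for Abca6, 3 for Abcc12, 8 for Abca8a, 13 for Abcc9, 14 for Abca17, 16 for Abcg5 and 18 for Abca9, and where it was not, the ratio sets liver against a reference spot at background level and its size is uncertain.

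**Figure D1:**
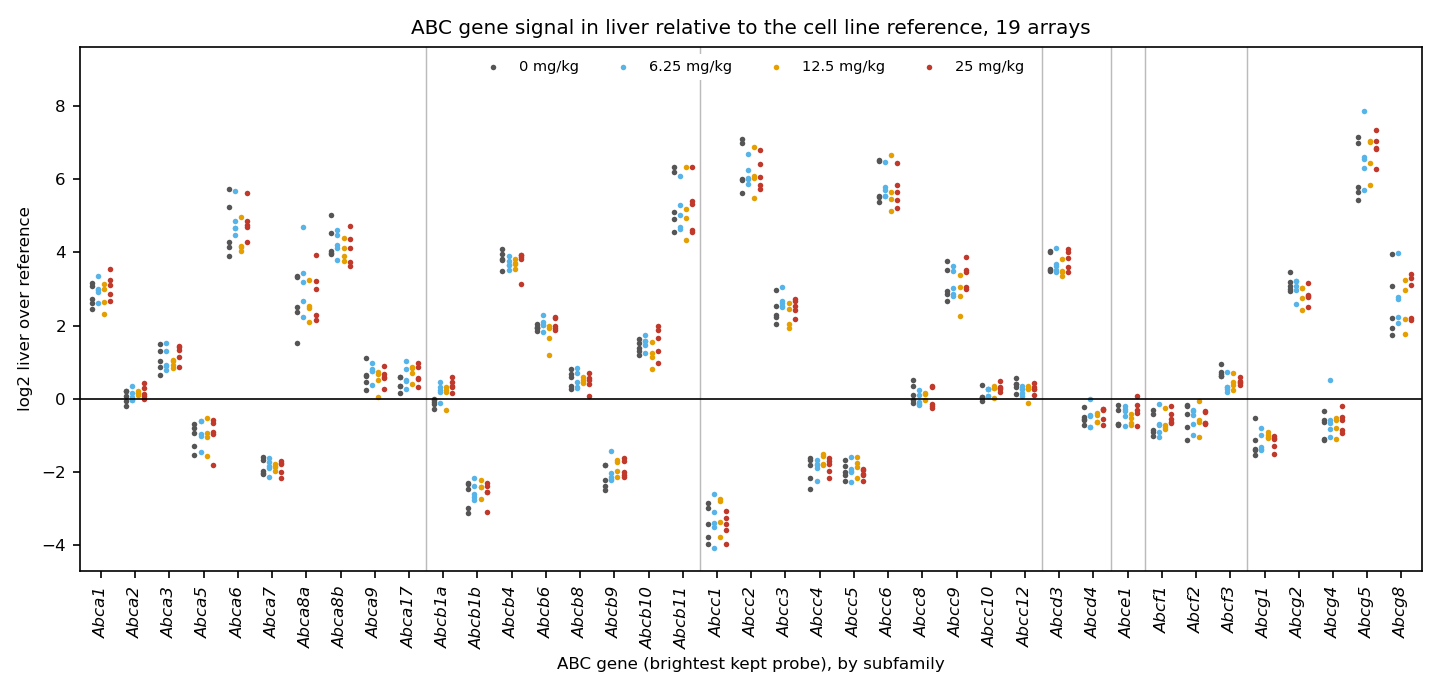
Each point is 1 array: the log2 ratio of liver over reference (vertical axis) for 39 of the measured ABC genes (horizontal axis, by subfamily), coloured by dose. The arrays at 25 mg/kg overlap the controls for every gene drawn but Abcb1a and Abcf3 (1.75% of all probes do not overlap). Genes such as Abcc2 and Abcg5 lie far above 0, while Abcc1 and Abcb1b lie below it at every dose.

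Signal in bulk liver cannot tell fewer cells of a type from less RNA per cell. All 6 measured hepatocyte markers exceeded background in liver on all 19 arrays, and 0 of the measured markers of pancreas (1) and adipose tissue (3) did so. No marker of the 9 cell type lists passed at 25 mg/kg by limma's adjusted p, with or without slide as a block, against 0.0578% and 0.809% of all probes. All 6 hepatocyte markers had log2 changes below 0 at 25 mg/kg, with a median of -0.29. With slide as a block 5 were below 0 and 1 above, with a median of -0.07, and with median centring 1 was below 0 and 5 above. Their mean ratio ran from 7.20 to 8.89 in controls and from 7.12 to 8.70 at 25 mg/kg. All 4 measured cholangiocyte markers were below 0 with and without the block, with medians of -0.21 and -0.20, while with median centring 1 was below 0 and 3 above. Of the other lists, 2 of 5 macrophage, 2 of 6 endothelial, 4 of 6 stellate, 1 of 5 lymphocyte and 0 of 2 erythroid markers were above 0, against 44.9% of all probes. The part of these markers in the ABC values was not tested. Controls had liver signal above background for 47.0% ± 7.90 of probes (SD, n = 5), and the doses, from low to high, for 48.3% ± 4.81 (SD, n = 5), 39.8% ± 5.01 (SD, n = 4) and 47.8% ± 6.42 (SD, n = 5). The arrays sat on 3 slides, each with all 4 groups. Slide 1 (scanned 7 days later) carried 2 controls and 1 array of each dose. On slide 2 there were 2 arrays a group, and on slide 3 a single control, 1 array at 12.5 mg/kg and 2 at each of the other doses.

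Slide accounted for a median of 51.2% of the variance of an ABC gene over the 19 arrays, against 41% over all measured probes, and dose group for 13.5% against 12.8%. Each factor was fitted alone, and its share was not adjusted for its number of levels. Labels without any effect would also take a share. Slide took over 50% of the variance in 21 of the 41 genes. The share reached 95% for Abcb11, 90.8% for Abcc6, 87.6% for Abcc1 and 83.6% for Abcc2. It was 1.41% for Abcb1a, 1.46% for Abcc3 and 1.88% for Abcf3. Each comparison was therefore also fitted with slide as a block.

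**Figure D2:**
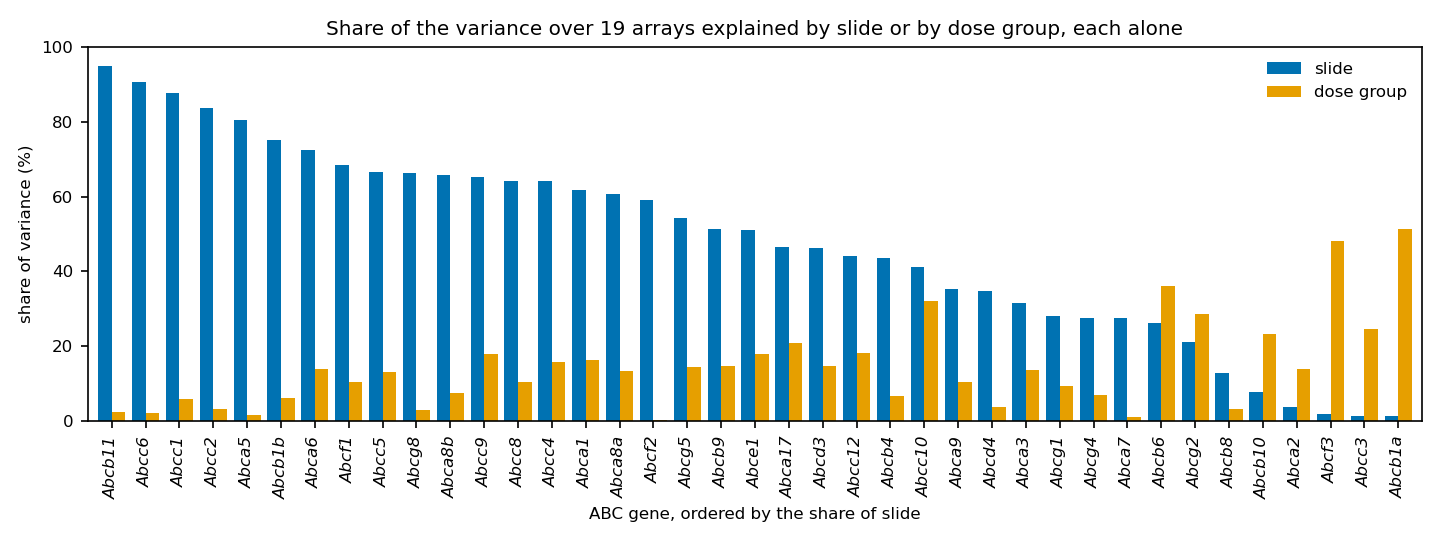
Bars give the share of the variance over 19 arrays (vertical axis, percent) that slide (blue) or dose group (orange) takes when fitted alone, for 39 ABC genes. Slide takes 95% for Abcb11 on the left. Dose group takes more than slide for genes toward the right, among them Abcb1a, Abcc3, Abcf3, Abca2, Abcb10, Abcg2 and Abcb6.

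At 25 mg/kg, 0 of 41 ABC genes passed in limma, against 0.0578% of all 29415 probes (17 probes). With slide as a block 0 passed, against 0.809% of all probes. The unadjusted p was under 0.05 for 4 genes (7.37% of all probes), and with the block for 10 (14.6% of all probes), of which 8 were higher and 2 lower. The log2 change was above 0 for 25 genes (44.9% of all probes) and below 0 for 16, with a median of 0.08 against -0.02 over all probes and a range of -0.32 to 0.66. With slide as a block 27 were above 0 and 14 below (46.8% of all probes above 0). Centring each array on its median in place of loess gave 40 higher and 1 lower, and it moved the median of all probes by 0.18. Relative to that median, the members' median was 0.13 in place of 0.10. The 95% interval of the change lay inside 2-fold either way for 37 of the 41 genes, against 94.5% of probes, and for 40 with the block, against 97.4%. Of the 13812 named genes, each by its brightest probe, 6672 were above 0 (6729 with the block), with a median of -0.01. The unadjusted p was under 0.05 for 1191 of them, and for 2239 with the block.

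At 12.5 mg/kg, 0 members passed, against 0.00% of probes and 0.00680% with slide as a block. The unadjusted p was under 0.05 for 1 gene (4.21% of probes) and for 4 with the block (9.50%). The change was above 0 for 13 genes and below 0 for 28 (44.0% of all probes were above 0), with a median of -0.05 against -0.02 over all probes. In the fit with slide as a block 19 were above 0 and 22 below (47.5% of all probes above 0), with a median of -0.01. With median centring, which moved the median of all probes by -0.09, the split was 8 and 33. Leaving out 1 array gave medians from -0.11 to 0.01. The share of probes above background was lowest at this dose, and its part in the result was not tested. At 6.25 mg/kg, 0 members passed, against 0.00% of probes in either fit, and the unadjusted p was under 0.05 for 2 genes (5.57% of probes) and for 6 with the block (11.7%). The change was above 0 for 28 genes and below 0 for 13 (46.7% of probes above 0), with a median of 0.05 against -0.01. Fitting slide as a block gave 30 above 0 and 11 below (49.0% of all probes above 0). With median centring, which moved the median of all probes by 0.11, the split was 35 and 6, and leaving out 1 array gave medians from -0.0018 to 0.08. The 95% interval lay inside 2-fold for 38 genes at 12.5 mg/kg (94.5% of probes) and 37 at 6.25 mg/kg (95.3%). Of the 13812 named genes, each by its brightest probe, 6369 were above 0 at 12.5 mg/kg and 7023 at 6.25 mg/kg. Their medians were -0.02 and 0.003.

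The 3 doses together against control passed 0 of 41 members, against 0.0374% of probes and 0.408% with the block. Unadjusted, 2 genes had a p under 0.05 (6.91% of probes), and 7 with the block (12.8%). The F test over the doses passed 0 members (0.0102% of probes, 0.0748% with the block), with 2 genes under 0.05 unadjusted (5.08%) and 8 with the block (14.2%). The linear trend on dose passed 0 members (0.0204% of probes, 0.241% with the block), with 3 genes under 0.05 unadjusted (5.87%) and 6 with the block (10.8%). These 3 tests and the single doses share the same 5 control arrays.

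**Figure D3:**
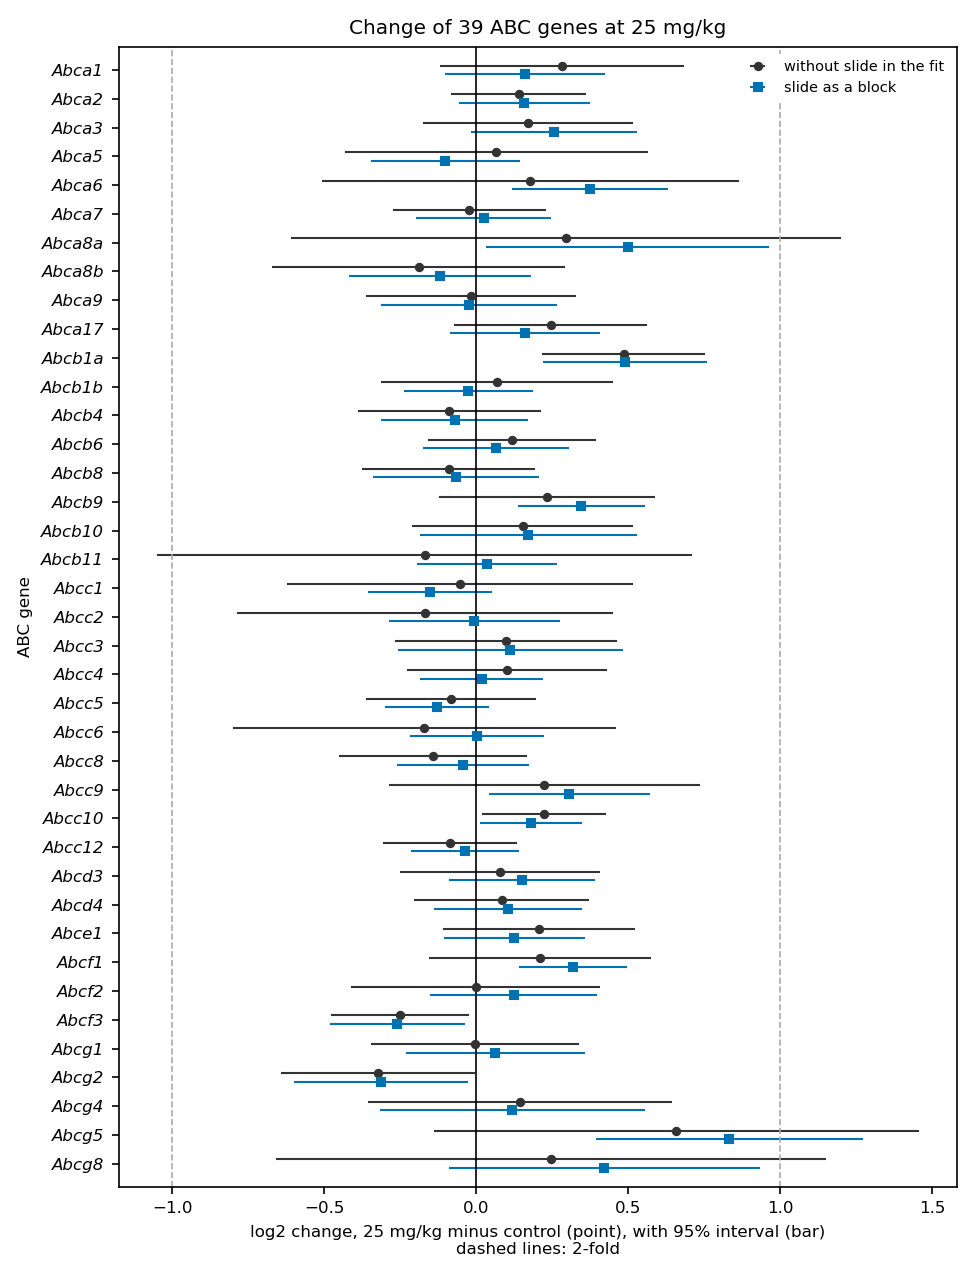
Points give the log2 change at 25 mg/kg against control (horizontal axis) with its 95% interval for 39 ABC genes (vertical axis), without slide in the fit (black) and with slide as a block (blue). The changes lie between -0.32 and 0.66 without slide, 35 of these intervals stay inside the dashed 2-fold lines, and 37 are narrower with the block.

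Among the canalicular exporters, Abcb1a and Abcb1b encode the mouse P-glycoproteins, which pump drugs and other lipophilic compounds out of cells. Abcb1a stood at -0.29, -0.15, -0.10, -0.02 and 0.00 in the controls, at -0.11, 0.18, 0.24, 0.33 and 0.47 at 6.25 mg/kg, at -0.31, 0.17, 0.24 and 0.33 at 12.5 mg/kg and at 0.15, 0.33, 0.35, 0.45 and 0.58 at 25 mg/kg. All 5 arrays at 25 mg/kg lay above the highest control, while each of the other doses had an array within or below the control range. Non-overlap with control was seen for 1.75% of all probes at 25 mg/kg and for 2 of the 41 ABC genes. Means were -0.11 ± 0.12 (SD, n = 5) in controls and 0.37 ± 0.16 (SD, n = 5) at 25 mg/kg. The log2 change was 0.48 (SE 0.13), which limma did not call (adjusted p = 0.213; 0.0783 with slide as a block). From the software's processed signals it was 1.26 (limma adjusted p = 0.302). Within slides the difference was 0.31, 0.53 and 0.50 on slides 1, 2 and 3.

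Abcb1b stood at -3.11, -2.99, -2.47, -2.32 and -2.29 in controls, -2.76, -2.68, -2.60, -2.38 and -2.16 at 6.25 mg/kg, -2.74, -2.41, -2.40 and -2.21 at 12.5 mg/kg and -3.09, -2.54, -2.53, -2.38 and -2.29 at 25 mg/kg. All doses overlapped the controls, and both slide 1 controls were the lowest of their group. Its log2 change at 25 mg/kg was 0.07 (SE 0.18; limma adjusted p = 0.957), with a 95% interval of -0.31 to 0.45. The Abcb1a and Abcb1b genes are close copies, and how far their probes share signal was not tested.

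Abcg5 and Abcg8 form the obligate heterodimer that exports cholesterol and plant sterols into bile. Abcg5 stood at 5.41, 5.65, 5.78, 6.98 and 7.15 in controls, 5.70, 6.31, 6.54, 6.61 and 7.84 at 6.25 mg/kg, 5.82, 6.43, 7.00 and 7.05 at 12.5 mg/kg and 6.28, 6.80, 6.83, 7.03 and 7.32 at 25 mg/kg. Both highest controls were the slide 1 arrays, and they overlapped every dose. Slide took 54.4% of its variance and dose group 14.3%, and the means were 6.19 ± 0.81 in controls (SD, n = 5) and 6.85 ± 0.38 at 25 mg/kg (SD, n = 5). The log2 change at 25 mg/kg was 0.66 (SE 0.38; limma adjusted p = 0.766). With slide as a block it was 0.83 (SE 0.21; limma adjusted p = 0.0657), the smallest adjusted p of any member in any comparison. The difference on slides 1, 2 and 3 taken singly was 0.26, 0.96 and 1.26.

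Abcg8 stood at 1.75, 1.94, 2.20, 3.09 and 3.96 in controls, 2.06, 2.23, 2.73, 2.78 and 3.98 at 6.25 mg/kg, 1.77, 2.19, 2.98 and 3.26 at 12.5 mg/kg and 2.15, 2.21, 3.11, 3.29 and 3.40 at 25 mg/kg. The groups overlapped throughout, with the highest array of the controls and of the lower doses on slide 1. Its reference spot was above background on 0 arrays, so these values rest on the liver signal over a reference at background level. Its log2 change at 25 mg/kg was 0.24 (SE 0.43; limma adjusted p = 0.926) and 0.42 with slide as a block (adjusted p = 0.456), and leaving out 1 array gave 0.03 to 0.59.

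Abcg2, the breast cancer resistance protein, exports urate, porphyrins and drug conjugates. It stood at 2.94, 2.99, 3.09, 3.20 and 3.45 in controls, 2.58, 2.97, 3.08, 3.22 and 3.23 at 6.25 mg/kg, 2.42, 2.76, 3.01 and 3.04 at 12.5 mg/kg and 2.49, 2.77, 2.81, 2.82 and 3.15 at 25 mg/kg. Of the 5 arrays at 25 mg/kg, 4 lay below the lowest control and 1 within the control range. How many of all probes split in this way was not counted. The log2 change was -0.32 (SE 0.15; limma adjusted p = 0.672; -0.31 with the block), the lowest of the 41 genes, and 0.02 with median centring. Minus the median of all probes, the change at 25 mg/kg was -0.30, and -0.15 with median centring. At 12.5 mg/kg the log2 change was also -0.32 (limma adjusted p = 0.999).

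Abcb11, the bile salt export pump, stood at 4.54, 4.92, 5.10, 6.19 and 6.32 in controls, 4.64, 4.69, 5.02, 5.29 and 6.09 at 6.25 mg/kg, 4.35, 4.93, 5.19 and 6.32 at 12.5 mg/kg and 4.56, 4.62, 5.30, 5.41 and 6.34 at 25 mg/kg. The slide 1 arrays of all 4 groups lay between 6.09 and 6.34, and every other array lay at or below 5.41. Its log2 change at 25 mg/kg was -0.17 (SE 0.42; limma adjusted p = 0.953), and 0.04 with slide as a block, with an interval of -0.19 to 0.27 in place of -1.05 to 0.71.

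Abcc2, which exports bilirubin and glutathione conjugates, stood at 5.61, 5.98, 6.00, 6.98 and 7.10 in controls, 5.87, 6.00, 6.02, 6.24 and 6.69 at 6.25 mg/kg, 5.49, 6.01, 6.09 and 6.87 at 12.5 mg/kg and 5.73, 5.83, 6.06, 6.41 and 6.79 at 25 mg/kg. The top 2 controls and the top array of each dose were again those of slide 1. Its change at 25 mg/kg was -0.17 (SE 0.30; limma adjusted p = 0.926) and -0.01 with the block, interval -0.29 to 0.27. Abcb4, the phosphatidylcholine floppase, stood at 3.48, 3.78, 3.81, 3.95 and 4.09 in controls, 3.52, 3.64, 3.65, 3.77 and 3.89 at 6.25 mg/kg, 3.53, 3.67, 3.72 and 3.83 at 12.5 mg/kg and 3.13, 3.83, 3.88, 3.92 and 3.92 at 25 mg/kg. One array at 25 mg/kg lay below all others, and the remaining arrays of that dose fell inside the control range. The change was -0.09 (SE 0.14; limma adjusted p = 0.921). Over the 8 canalicular genes 4 were higher and 4 lower at 25 mg/kg, with a median log2 change of -0.01.

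**Figure D4:**
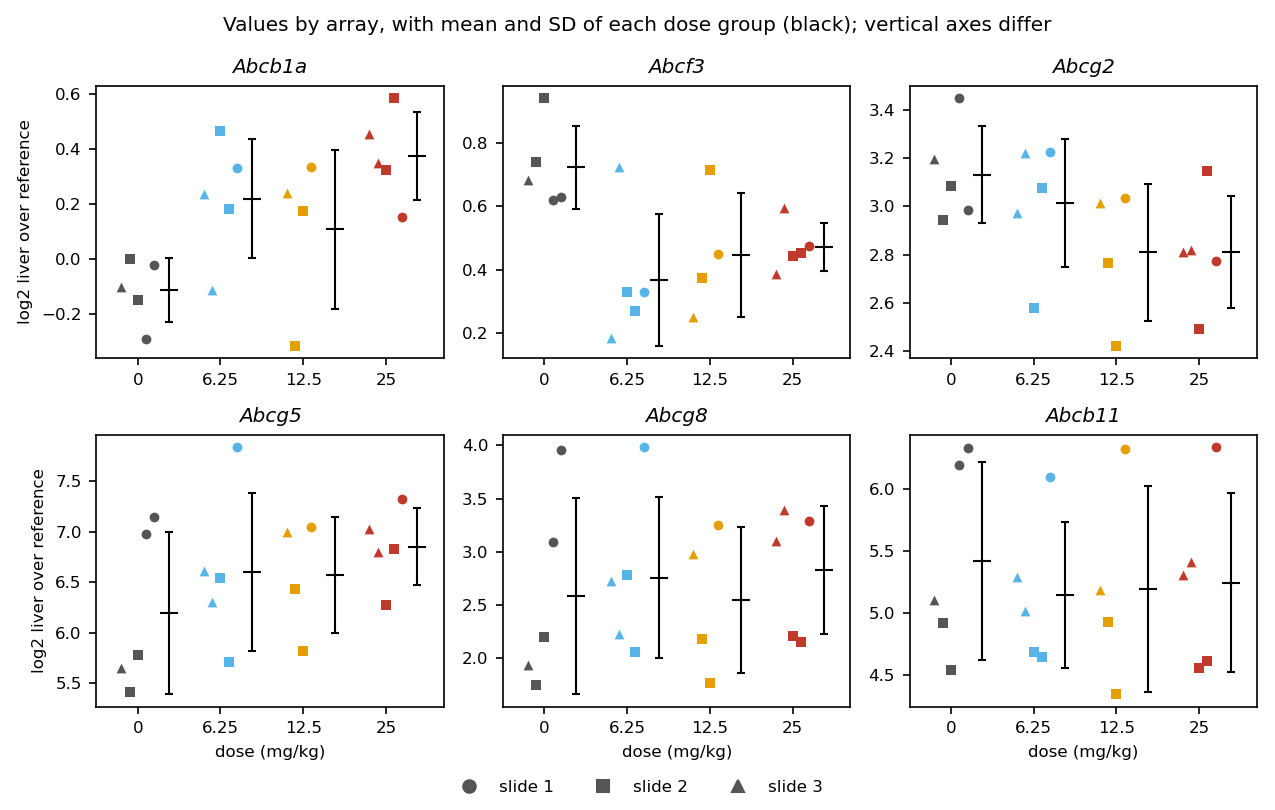
Points are arrays (log2 liver over reference, vertical axes that differ between panels) by dose in mg/kg, shaped by slide, with the mean and SD of each group in black, for 6 ABC genes. At 25 mg/kg Abcb1a lies above and Abcf3 below all controls (1.75% of all probes do not overlap). The slide 1 arrays of Abcb11 lie above the rest at every dose.

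Over the 7 sinusoidal and basolateral exporters 4 were higher and 3 lower at 25 mg/kg, with a median log2 change of 0.10. The fit with slide as a block gave 5 higher and 2 lower, with a median of 0.02. All 7 intervals without the block lay inside 2-fold, against 94.5% of all probes. Abcc10, which exports lipophilic anions and drugs, stood at -0.05, 0.03, 0.05, 0.05 and 0.37 in controls, 0.07, 0.08, 0.26, 0.27 and 0.28 at 6.25 mg/kg, 0.02, 0.28, 0.29 and 0.35 at 12.5 mg/kg and 0.17, 0.27, 0.29, 0.32 and 0.50 at 25 mg/kg. All 5 arrays at 25 mg/kg lay above 4 of the controls, and 1 control at 0.37 lay among them. Its log2 change was 0.22 (SE 0.10; limma adjusted p = 0.621; 0.303 with the block).

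Abcc3, which returns glucuronides and bile salts to blood, stood at 2.04, 2.22, 2.28, 2.54 and 2.97 in controls, 2.51, 2.53, 2.61, 2.66 and 3.05 at 6.25 mg/kg, 1.93, 2.03, 2.46 and 2.63 at 12.5 mg/kg and 2.18, 2.43, 2.54, 2.67 and 2.72 at 25 mg/kg. The controls spanned most of the range of the other groups. Its change was 0.10 at 25 mg/kg (limma adjusted p = 0.926; 0.0051 to 0.24 with 1 array left out) and 0.26 at 6.25 mg/kg (limma adjusted p = 0.926). Abcc4, an exporter of cyclic nucleotides and bile salts, stood at -2.45, -2.17, -1.81, -1.67 and -1.60 in controls, -2.24, -1.88, -1.79, -1.78 and -1.66 at 6.25 mg/kg, -1.80, -1.78, -1.56 and -1.51 at 12.5 mg/kg and -2.16, -1.97, -1.77, -1.70 and -1.61 at 25 mg/kg. The 2 lowest controls were the slide 1 arrays, and the change at 25 mg/kg was 0.10 (limma adjusted p = 0.919).

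Abcc6, which mediates ATP release from hepatocytes and so feeds pyrophosphate to blood, stood at 5.36, 5.51, 5.53, 6.49 and 6.52 in controls, 5.53, 5.55, 5.71, 5.78 and 6.45 at 6.25 mg/kg, 5.14, 5.46, 5.65 and 6.64 at 12.5 mg/kg and 5.20, 5.44, 5.65, 5.83 and 6.44 at 25 mg/kg. Its slide 1 arrays stood at 6.44 or above in every group and all others at or below 5.83. The change at 25 mg/kg was -0.17 (interval -0.80 to 0.46; limma adjusted p = 0.926), and its interval with the block was -0.22 to 0.22. Abca1, which loads cholesterol and phospholipid onto apolipoprotein A-I, stood at 2.45, 2.60, 2.71, 3.07 and 3.17 in controls, 2.62, 2.92, 2.96, 2.99 and 3.36 at 6.25 mg/kg, 2.30, 2.65, 3.01 and 3.13 at 12.5 mg/kg and 2.68, 2.85, 3.1, 3.24 and 3.55 at 25 mg/kg. The groups overlapped, with 1 array at 25 mg/kg above all others, and the change was 0.28 (SE 0.19; limma adjusted p = 0.824; 0.16 with the block).

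Abcc1 and Abcc5, exporters of glutathione conjugates and of cyclic nucleotides, had ratios below 0 on all 19 arrays. Abcc1 stood at -3.95, -3.78, -3.42, -2.99 and -2.85 in controls, -4.06, -3.49, -3.38, -3.09 and -2.59 at 6.25 mg/kg, -3.77, -3.37, -2.79 and -2.74 at 12.5 mg/kg and -3.96, -3.57, -3.41, -3.26 and -3.06 at 25 mg/kg. Its liver signal was well above background on 13 of the 19 arrays. Abcc5 stood at -2.24, -2.07, -2.01, -1.84 and -1.68 in controls, -2.27, -2.0, -1.97, -1.90 and -1.58 at 6.25 mg/kg, -2.15, -1.86, -1.75 and -1.59 at 12.5 mg/kg and -2.24, -2.07, -2.06, -1.96 and -1.92 at 25 mg/kg. The lowest array of each group was from slide 1 for both genes, and the changes at 25 mg/kg were -0.05 for Abcc1 (limma adjusted p = 0.978) and -0.08 for Abcc5 (limma adjusted p = 0.921).

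The other lipid transporters measured were Abca2, Abca3, Abca5, Abca6, Abca7, Abca8a, Abca8b, Abca9, Abcg1 and Abcg4. Of these 10 genes 6 were higher and 4 lower at 25 mg/kg, from -0.19 for Abca8b to 0.29 for Abca8a, with a median log2 change of 0.10. Abca8a stood at 1.52, 2.36, 2.52, 3.32 and 3.36 in controls, 2.24, 2.67, 3.18, 3.43 and 4.69 at 6.25 mg/kg, 2.09, 2.49, 2.52 and 3.25 at 12.5 mg/kg and 2.14, 2.29, 2.98, 3.21 and 3.92 at 25 mg/kg. The groups overlapped, and the top array at 6.25 mg/kg came from slide 1. Its change was 0.63 at 6.25 mg/kg (SE 0.43; limma adjusted p = 0.926; with the block 0.83, adjusted p = 0.21). Leaving out 1 array gave 0.27 to 0.88, and the software's processed signals gave 1.94.

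Abca6, whose reference signal was above background on 2 arrays, gave the smallest p of the members in the F test with slide as a block (limma adjusted p = 0.0909), and its means were 4.66 ± 0.79, 4.86 ± 0.48, 4.32 ± 0.42 and 4.83 ± 0.48 (SD, n = 5, 5, 4 and 5) in order of dose. Without the block the adjusted p of that test was 1.0, so the call did not change. Abcg1, which exports sterols to lipoprotein particles, stood at -1.19 ± 0.39 in controls (SD, n = 5) and -1.19 ± 0.20 at 25 mg/kg (SD, n = 5), a change of 0.00. Abca17, an Abca gene near Abca3 on its chromosome, stood at 0.15, 0.35, 0.35, 0.59 and 0.61 in controls, 0.26, 0.48, 0.52, 0.81 and 1.02 at 6.25 mg/kg, 0.40, 0.71, 0.84 and 0.88 at 12.5 mg/kg and 0.33, 0.54, 0.57, 0.87 and 0.97 at 25 mg/kg. The groups overlapped, and the change was 0.30 at 12.5 mg/kg (limma adjusted p = 0.999) and 0.24 at 25 mg/kg (limma adjusted p = 0.798).

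Among the transporters of organelles, Abcb10 of the inner mitochondrial membrane serves heme metabolism, Abcb6 is linked to porphyrin transport, Abcb8 is mitochondrial and Abcb9 carries peptides into lysosomes. Their log2 changes at 25 mg/kg were 0.15 for Abcb10, 0.12 for Abcb6, -0.09 for Abcb8 and 0.23 for Abcb9, and limma called none of these 4 (adjusted p from 0.834 to 0.914). Abcb6 stood at 1.84, 1.92, 1.92, 1.95 and 2.03 in controls, 1.83, 2.00, 2.03, 2.10 and 2.28 at 6.25 mg/kg, 1.19, 1.66, 1.94 and 1.99 at 12.5 mg/kg and 1.89, 1.93, 1.97, 2.21 and 2.24 at 25 mg/kg. The lowest array of all, at 12.5 mg/kg, was the slide 1 array of that dose, and the change there was -0.24 (SE 0.14; limma adjusted p = 0.999). Abcb9 had a change of 0.35 at 25 mg/kg with slide as a block (SE 0.10; limma adjusted p = 0.108).

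Abcd3, a peroxisomal half-transporter that imports branched fatty acyl groups, and Abcd4, a cobalamin transporter of lysosomes, each had a log2 change of 0.08 at 25 mg/kg (limma adjusted p = 0.938 and 0.922). Abcd3 stood at 3.72 ± 0.28 in controls (SD, n = 5). Abcc8 and Abcc9, sulfonylurea receptor subunits of potassium channels and not transporters, had changes of -0.14 and 0.22. Abcc9 stood at 3.16 ± 0.47 in controls (SD, n = 5).

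Among the members without a membrane domain, Abce1 recycles ribosomes after termination, and the Abcf proteins act on ribosomes in initiation and in stress signalling. Abcf3 stood at 0.62, 0.63, 0.68, 0.74 and 0.94 in controls, 0.19, 0.27, 0.33, 0.33 and 0.72 at 6.25 mg/kg, 0.25, 0.38, 0.45 and 0.71 at 12.5 mg/kg and 0.39, 0.44, 0.45, 0.48 and 0.59 at 25 mg/kg. All 5 arrays at 25 mg/kg lay below the lowest control, a dose at which 1.75% of all probes did not overlap the controls. At 6.25 mg/kg 4 of 5 Abcf3 arrays lay below the lowest control, and at 12.5 mg/kg 3 of 4 did. The last array of each dose lay inside the control range, and such partial splits were not counted over all probes. Full non-overlap was seen for 0.969% of all probes at 6.25 mg/kg and 1.46% at 12.5 mg/kg. The log2 change was -0.35 (SE 0.11; limma adjusted p = 0.827) at 6.25 mg/kg, -0.28 (SE 0.12; limma adjusted p = 0.999) at 12.5 mg/kg and -0.25 (SE 0.11; limma adjusted p = 0.611) at 25 mg/kg. With median centring the change at 25 mg/kg was 0.08. Minus the median of all probes, that change was -0.08, in place of -0.23 in the main fit. At that dose the 3 slides gave -0.15, -0.39 and -0.19.

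Abcf1 had a change of 0.21 at 25 mg/kg and 0.32 with slide as a block (limma adjusted p = 0.0828), while its second measured probe gave -0.18 and 0.17. Second probes also had the other sign at 25 mg/kg for Abca2 (0.14 and -0.14) and Abca5 (0.07 and -0.06). At 6.25 mg/kg further probes went against the main probe for Abcc5 (-0.11 and -0.12), Abcc6 (0.11) and Abcc8 (0.04), among others. The second Abcc8 probe did so at 12.5 mg/kg too (0.21). Abce1 and Abcf2 had changes of 0.20 and 0.00 at 25 mg/kg.

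Genes that work with the ABC members were given the same tests. Of the ABC genes with other names, Tap1 and Tap2, the peptide transporter for antigen presentation, had log2 changes of -0.26 and 0.01 at 25 mg/kg, and Cftr was not measured. Of 10 measured SLC-class hepatic carriers 3 were higher and 7 lower at 25 mg/kg, with a median of -0.07 (6 and 4 with slide as a block, median 0.04), Slc10a2 at 0.68 and the bile salt importer Slc10a1 at -0.27. Of 17 regulators of ABC genes 8 were higher and 9 lower (10 and 7 with slide as a block), with Arnt at 0.48 (limma adjusted p = 0.334) and Nfe2l2 at 0.54 (limma adjusted p = 0.497). Of 7 lipoprotein partners 2 were higher and 5 lower (median -0.15; 5 and 2 with slide as a block, median 0.02), with Lpl at -1.30 (SE 0.37; limma adjusted p = 0.253; 0.0656 with slide as a block). The 8 lists also covered P-type ATPases of bile export, peroxisome, heme and iron-sulfur, and translation partners. There 0 genes passed in limma without or with slide as a block, against 0.0578% and 0.809% of all probes at 25 mg/kg. At 25 mg/kg 26 of the 59 listed genes were above 0 and 33 below, and 39 and 20 with the block. Of all probes 44.9% and 46.8% were above 0. The unadjusted p at that dose was under 0.05 for 3 genes, Arnt, Nfe2l2 and Lpl (7.37% of all probes), and with the block for 11 (14.6%), 6 of them regulators.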

How the data were processed

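Liver and reference RNA of 19 animals was measured on 19 Agilent arrays. The deposited scanner files hold median red and green intensities of spots and of surrounding background, which, per the file headers, the authors took from the scans using Feature Extraction 10.7.3.1. The authors' deposited table holds log2 ratios. How it was made is not given in the sources used here. Its columns correlated at 0.993 to 0.996 with loess log2 ratios computed without background subtraction, which set its scale and direction as log2 liver over reference, and its column medians ran from -0.04 to -0.02.

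Intensities were background corrected (normexp, offset 50) and normalised by loess within arrays in limma 3.58.1 (R 4.3.3), with control spots at weight 0. Outlier spots, by the software's marks, became missing values (0.132% of those kept). The planned mean signals were replaced by the deposited medians. Probes above background in liver on at least 4 arrays, with at most 2 missing values, were kept (29415 of 55681), and the brightest of a gene's kept probes stood for it. No member was saturated. Symbols came from RefSeq accessions (GRCm38.p6), which named 79.9% of the 33064 RefSeq probes. The files name unannotated intervals on mm9, so the GRCm38.p6 coordinates serve the promoter sequences alone.

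Group means were fitted over all 19 arrays with lmFit and eBayes, two-sided, with Benjamini-Hochberg adjustment over the 29415 probes and calls at 0.05. The scripts were tested on simulated data. Apart from the dose, the labels give the same strain, sex, age and time for all animals. The p-values set differences of group means against the spread between these samples, which in the main fit includes differences between slides. The number of arrays limits the precision. Alternatives were slide as a block, background correction, normalisation, filter, prior, probe rule, the deposited table, the groups fitted and each array left out. The members, roles and lists were chosen with earlier results of these data known. The rule for values in every array took genes that passed, the 4 of smallest p in each test of a dose, the F test and the trend, and the canalicular and sinusoidal exporters; of each companion list it took the 2 genes of smallest p at 25 mg/kg. The values of 2 measured members are not reported here singly, and the figures leave them out, while counts and medians over the members include them.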

Additional observations from a re-analysis of the deposited data

Results flagged for a closer look

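In 5 groups 1 array stood apart from the rest of its group, out of 76 groups of 4 or 5 arrays looked at for the 19 ABC genes given array by array. Chance alone gives about 1 in 20. Abcb4 was low on 1 array at 25 mg/kg, at 3.13 on slide 2, where the nearest array of its group stood at 3.83. Abcc10 was high on 1 control array of slide 2, at 0.37 against 0.05. Abcc3 was high on 1 array at 6.25 mg/kg on slide 3, at 3.05 against 2.66. Abcc6 was high on the slide 1 array at 6.25 mg/kg, at 6.45 against 5.78, and all its slide 1 arrays stood at 6.44 or above. Abcf3 was high on 1 array at 6.25 mg/kg on slide 3, at 0.72 against 0.33.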

How the results depend on the processing

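The count of ABC genes that passed was 0 in all 6 tests under each of the other settings that gave a value, with the smallest adjusted p in limma at 0.0657 (Abcg5, 25 mg/kg, slide as a block). Of all probes 0.0578% passed at 25 mg/kg in the main fit and 0.809% with slide as a block. No paired analysis was possible because replicate numbers were given in accession order and pair no animals. The Aquantile step leaves log ratios as they are. Of 27 gene results, 10 took the other sign under some setting, none of them past the threshold. With slide as a block the log2 change at 25 mg/kg was 0.036 for Abcb11, -0.026 for Abcb1b and 0.0035 for Abcc6. With median centring it was 0.19 for Abcb11, 0.29 for Abcb4, 0.20 for Abcc1, 0.088 for Abcc2, 0.19 for Abcc5, 0.15 for Abcc6, 0.080 for Abcf3 and 0.015 for Abcg2, where the median of all probes moved by 0.18. The software's processed signals gave 0.037 for Abcc1, and without a change of sign 1.26 for Abcb1a, 0.53 for Abca17 and 0.74 for Abca8a. Leaving out 1 array gave -0.44 to 0.057 for Abcb11, -0.051 to 0.20 for Abcb1b, -0.17 to 0.063 for Abcb4, -0.19 to 0.083 for Abcc1, -0.35 to 0.022 for Abcc2 and -0.029 to 0.18 for Abcc4, and without a change of sign 0.034 to 0.59 for Abcg8, 0.022 to 0.49 for Abca8a and 0.0051 to 0.24 for Abcc3. Minus the median of all probes, median centring gave 0.032 for Abcb11, 0.13 for Abcb4, 0.039 for Abcc1 and 0.023 for Abcc5. For Abcc2, Abcc6, Abcf3 and Abcg2 it gave -0.074, -0.013, -0.082 and -0.15. The cause of these changes of sign was not tested. With median centring 20 of 41 control means lay above 0 in place of 27. Signal over background limits the 8 genes not measured, the 9 genes with liver signal at background on some arrays (most of all Abcc12, above it on 4) and the 8 with reference signal at background on some (most of all Abcg8, above it on 0).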
